A study of Mus musculus with 16 samples.

Results

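Hippocampal RNA from mice labelled TSPOKO, a knockout of Tspo, was compared with wild-type hippocampal RNA in the libraries chosen by a low level of Lcn2. Lcn2 encodes lipocalin 2, an iron-carrier-binding protein that reactive astrocytes make in large amounts during inflammation. A library was kept where Lcn2 gave fewer than 1 CPM (raw counts scaled to the library's total), and the treatment labels were then pooled. The rule kept 13 of the 16 libraries: all 8 knockout libraries and 5 of the 8 wild-type libraries. The kept knockout libraries were 4 from mice given PBS, the vehicle, and 4 from mice given lipopolysaccharide (LPS), which is shed by bacteria and triggers innate immunity. The kept wild-type libraries were the 4 PBS libraries and LPS replicate 1. All mice were 3 months old, and the tissue was the same in every library. The labels give no Tspo allele, mouse strain, LPS dose or time after injection.

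Just inside the limit, Lcn2 stood at 0.631 CPM in wild-type LPS replicate 1. The other 4 kept wild-type libraries held 0.0532 to 0.260 CPM, and the 8 knockout libraries held 0 to 0.298 CPM. Outside it, the 3 wild-type LPS libraries set aside held 216, 238 and 243 CPM. A limit of 0.5 CPM would also set aside wild-type LPS replicate 1. These values chose the libraries and are given as a description, with no test.

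TSPO, the translocator protein, sits in the outer mitochondrial membrane, where it binds cholesterol, porphyrins and many synthetic ligands. In brain it is found mainly in microglia, astrocytes and the vessel wall, and it rises when glia are activated, which is why its ligands are used as imaging tracers of neuroinflammation. Its place in steroid synthesis has been debated since knockout mice were made.

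The 13 libraries held 30198619 to 42375785 estimated counts each. Whether each replicate is its own animal is not stated, so n counts libraries and the p-values measure only the spread between these libraries, which may be technical. Sample titles hold codes that no source explains. Among the kept wild-type libraries, 1 code covers PBS replicates 1 to 3 and another covers PBS replicate 4 with LPS replicate 1, and no knockout library has either. Among the kept libraries, code and genotype therefore cannot be told apart. The 3 wild-type libraries set aside share a code with knockout PBS replicate 4. Male-specific transcripts marked 4 of the 8 knockout and 2 of the 5 wild-type libraries. All 25 genes on a list of hippocampal subfield markers passed the filter on low counts. Choroid plexus genes were low in 2 wild-type libraries: the mean log2 CPM of 20 such genes, set to 0 at the wild-type mean, was -2.43 in PBS replicate 1 and -2.55 in LPS replicate 1. The other wild-type libraries spanned 1.08 to 2.80 and the knockout libraries 1.13 to 2.42.

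Tspo (ENSMUSG00000041736; chromosome 15, 83563592 to 83574203, plus strand of GRCm38 in GENCODE M21) was measured first, as a check of the labels. In wild type it stood at 2.51, 2.58, 2.05 and 5.14 CPM in PBS replicates 1 to 4 and at 2.61 CPM in LPS replicate 1, from 62 to 194 counts. CPM here are scaled by the trimmed mean of M values (TMM). Knockout PBS libraries held 2.31, 0.151, 0.279 and 0.468 CPM, and knockout LPS libraries 0.484, 0.364, 0.273 and 0.208 CPM. Hence 7 of 8 knockout libraries, with 5 to 20 counts each, lay below every wild-type library. With 98 counts, the library labelled knockout PBS replicate 1 was inside the wild-type range and goes against its label.

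**Figure D1:**
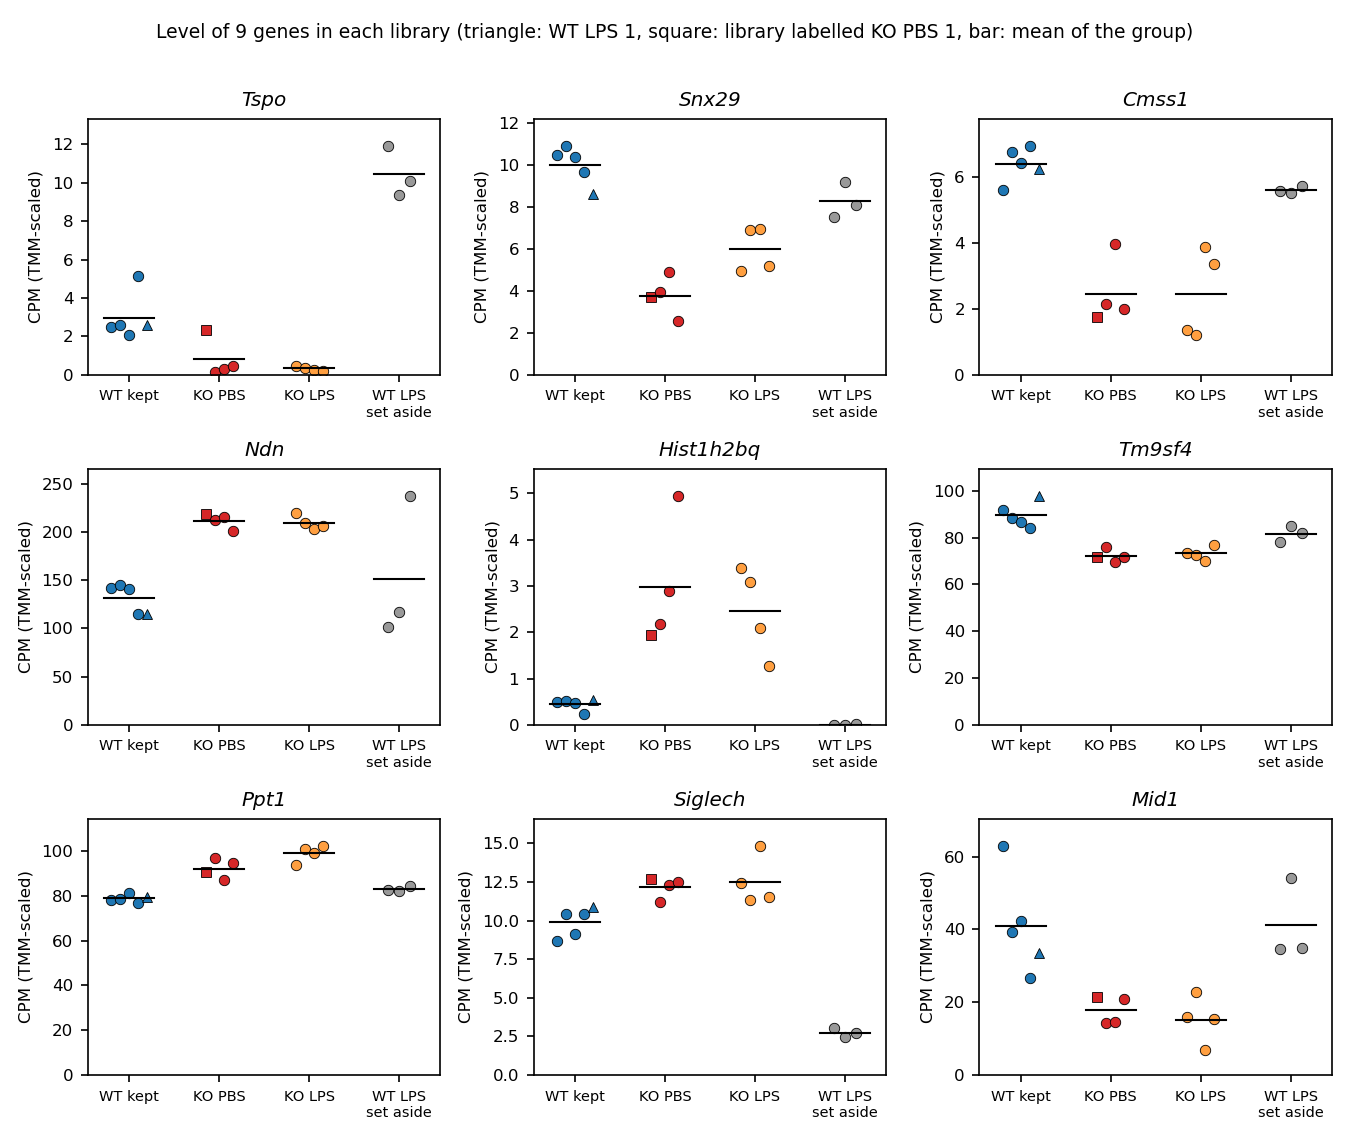
TMM-scaled CPM (y axis, from 0) of 9 genes in each library, by kept wild-type, knockout PBS, knockout LPS and set-aside wild-type LPS libraries (x axis); each point is a library and each bar a group mean. Tspo was below 0.5 CPM in 7 of 8 knockout libraries and at 2.31 CPM in the library labelled knockout PBS replicate 1 (square), while Snx29, Cmss1, Ndn, Hist1h2bq, Tm9sf4, Ppt1, Siglech and Mid1 separated all 8 knockout from all 5 kept wild-type libraries.

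In the fit across all genes (edgeR quasi-likelihood F test), the log2 fold change of Tspo, knockout over wild type, was -2.36 ± 0.53 (SE; 8 against 5 libraries), and its Benjamini-Hochberg adjusted p was 0.386. An exact two-sided permutation test on log2 CPM over all 1287 arrangements of the libraries gave a difference of -2.68 and p = 0.00155. Tspo came with the choice of the comparison as a marker of the lines, so its tests are not independent evidence. When the library labelled knockout PBS replicate 1 was left out, the edgeR estimate was -3.21 and the permutation test gave -3.02 with p = 0.00126. That library was picked by its Tspo value, so leaving it out set the groups apart by construction. The permutation p is then the smallest that 792 arrangements allow. The edgeR call for the targeted gene thus missed the threshold with that library and passed it without it. Directions drawn below take this library as labelled.

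Few genes differed between the genotypes at the adjusted threshold, and Tspo was not among them. Of 15949 genes tested, 5 passed an adjusted p of 0.05 (edgeR), which is 0.0313% of them: 4 were higher in the knockout (0.0251%) and 1 was lower (0.00627%). In order of p they were Ndn, Gm20075, Hist1h2bq, Tm9sf4 and Ppt1. At an unadjusted p of 0.05, 973 genes passed, or 6.10%, with 464 higher and 509 lower. This share, which is the background for the gene lists, also moved with the libraries: 1226 were higher and 941 lower without wild-type PBS replicate 4, 302 and 261 without wild-type PBS replicate 1, and 808 and 916 with the treatment label as a covariate. The median gene had an SE of 0.08 on the log2 scale, and for 14752 genes (92.5%) the 95% interval of the change lay within 1 log2 unit on either side of 0. For 12034 genes (75.5%) it lay within 0.5. A simulation of this design had 67, 67 and 66 genes changed 1.5-fold, 2-fold and 4-fold. Of these, edgeR recovered 61.2%, 88.1% and 97%, and it also called 6 unchanged genes. So many changed genes loosen the adjusted threshold, and the simulated libraries did not differ in tissue content. Detection in the data may therefore be lower than these rates.

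The count of calls depended on which libraries entered. Without wild-type LPS replicate 1, which leaves the wild-type PBS libraries, 12 genes passed, 9 higher and 3 lower. Without the library labelled knockout PBS replicate 1, 6 passed. DESeq2 called 15 genes higher and 16 lower in the same 13 libraries, among them Tspo and all 5 of the genes called by edgeR.

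**Figure D2:**
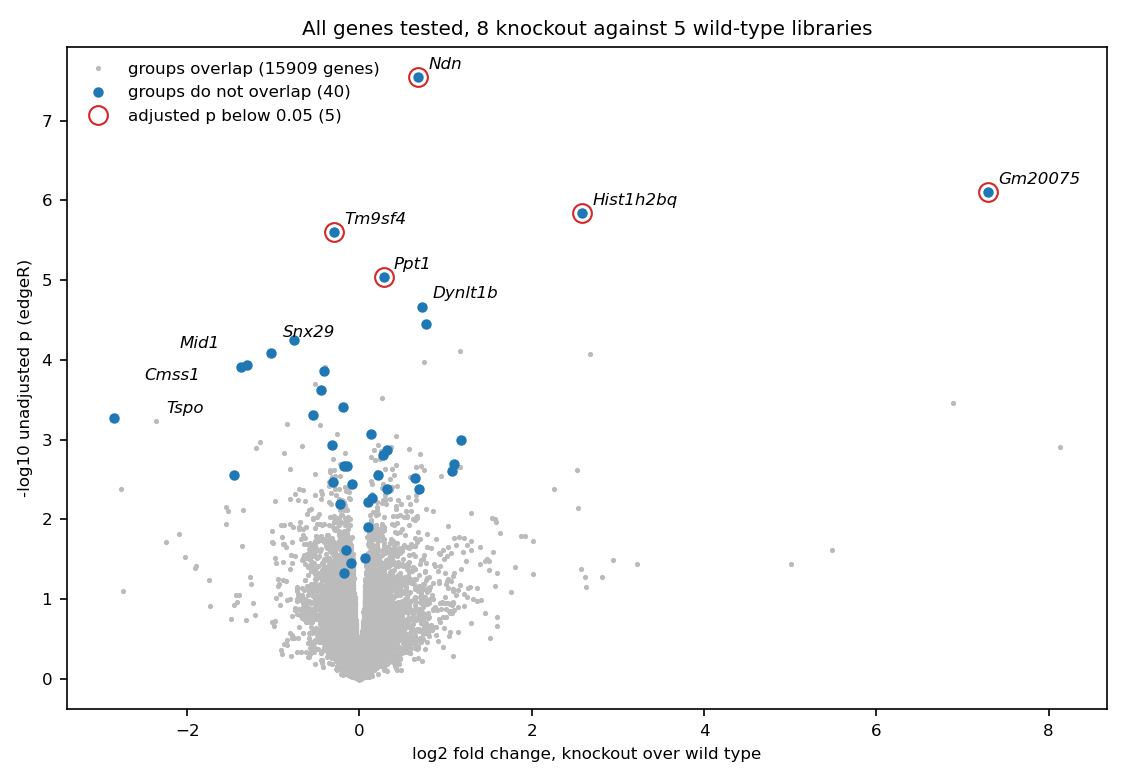
Log2 fold change of knockout over wild type (x axis) against the -log10 unadjusted p of the edgeR test (y axis) for all 15949 genes tested; blue points are the 40 genes whose genotype groups do not overlap and red rings the 5 genes with an adjusted p below 0.05. Most genes lie close to a log2 fold change of 0, and Tspo, at -2.36, is among the genes whose groups overlap.

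Ndn had the smallest p. It encodes necdin, a MAGE-family protein of neurons that is expressed from the paternal chromosome and lies in the mouse region matching the human Prader-Willi locus. Wild-type PBS libraries held 142, 145, 141 and 115 CPM, and wild-type LPS replicate 1 held 115 CPM. Knockout PBS libraries held 219, 212, 215 and 201 CPM and knockout LPS libraries 220, 209, 203 and 206 CPM. The 2 groups did not overlap, with means of 132 ± 15.4 CPM in wild type (SD, n = 5) and 211 ± 6.91 CPM in knockout (n = 8). Ndn rose by 0.68 ± 0.06 log2 (1.60-fold; edgeR adjusted p = 0.000455). Among the wild-type libraries set aside, 2 held 101 and 117 CPM, but wild-type LPS replicate 4 held 237 CPM, above every knockout library. With these 3 libraries added, 8 against 8, the adjusted p was 0.168. The imprinted neighbours of Ndn, chosen after their values were seen, did not pass the test: Magel2 gave a log2 fold change of -0.36 ± 0.27, Mkrn3 0.00 ± 0.20 and Snrpn -0.02 ± 0.04, and their groups overlapped.

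Ppt1 and Tm9sf4 changed by small amounts with little spread. Ppt1 encodes palmitoyl-protein thioesterase 1, a lysosomal enzyme whose loss causes infantile neuronal ceroid lipofuscinosis. Its wild-type libraries held 76.8 to 81.4 CPM (78.8 ± 1.77, SD, n = 5) and its knockout libraries 86.8 to 102 CPM (95.5 ± 5.16, n = 8), a rise of 0.28 ± 0.04 log2 (edgeR adjusted p = 0.0291). The call for Ppt1 was lost when any 1 of 10 of the 13 libraries was left out. Tm9sf4 encodes a multi-pass membrane protein of the Golgi and endosomes. Its wild-type libraries held 84.1 to 97.7 CPM (89.8 ± 5.23, n = 5) and its knockout libraries 69.7 to 76.7 CPM (72.8 ± 2.55, n = 8), and it fell by 0.30 ± 0.04 log2 (edgeR adjusted p = 0.0101). That call was lost without wild-type PBS replicate 1 (edgeR adjusted p = 0.0822). In both genes the wild-type and knockout ranges were apart, and the 3 libraries set aside lay at 82.1 to 84.5 CPM for Ppt1 and 78.3 to 84.9 CPM for Tm9sf4, outside the knockout range.

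The other 2 called genes are copies of another gene, and their sequences show how closely. Gm20075 is annotated on chromosome 13 (96079216 to 96081376, minus strand) and matches Btf3l4 on chromosome 4, a paralog of the transcription and nascent-chain factor Btf3. Of its 2131 distinct 31-base words, 90.4% also occur in Btf3l4 transcripts. The aligned transcripts differ at 5 of 2109 bases and at 0 of 474 coding bases. The same 120 coding bases of both genes are shown because a read from them fits both; no capital appears, since no base differs (GENCODE M21, GRCm38, chr4:108819218-108819337, minus strand, and chr13:96081042-96081161, minus strand).
Btf3l4: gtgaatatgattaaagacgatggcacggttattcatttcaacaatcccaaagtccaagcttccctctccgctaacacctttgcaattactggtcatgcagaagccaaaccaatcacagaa
Gm20075: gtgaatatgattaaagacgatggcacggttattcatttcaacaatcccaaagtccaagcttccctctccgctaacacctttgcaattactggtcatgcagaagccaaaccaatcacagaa

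Gm20075 held 0 to 0.347 CPM in the 5 wild-type libraries. Knockout PBS libraries held 19.8, 0.906, 20.8 and 36.1 CPM and knockout LPS libraries 33.6, 38.9, 41.0 and 36.4 CPM. The edgeR log2 fold change was 7.30 ± 0.87 (adjusted p = 0.00626). Knockout PBS replicate 2 stood apart near the wild-type level, and PBS replicates 1 and 3 lay between it and the other 5. Btf3l4 mirrored this order. It held 61.5 to 62.8 CPM in wild type, 41.6, 70.1, 39.5 and 28.2 CPM in knockout PBS and 27.4, 25.6, 28.7 and 25.2 CPM in knockout LPS.

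The summed counts of both genes, an alternative chosen after seeing the data, had no call. The sum was 62.4 ± 0.471 CPM in wild type (SD, n = 5) and 64.2 ± 4.08 CPM in knockout (n = 8). Its log2 fold change was 0.04 ± 0.04, with a 95% interval of -0.05 to 0.14 and an edgeR adjusted p of 0.886. With the pair counted as 1 gene, the call for Gm20075 was lost.

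Other genes in the same stretch of chromosome 4 were looked at after their values were seen, and Tceanc2 had this order of libraries. Tceanc2 (107134155 to 107179116, minus strand), which encodes a protein with a domain related to transcription elongation factor A, held 18.1 to 20.1 CPM in wild type. Its knockout PBS libraries held 10.1, 20.2, 9.95 and 2.54 CPM and its knockout LPS libraries 2.09 to 3.32 CPM. Knockout PBS replicate 2 was thus at the wild-type level, replicates 1 and 3 were near the middle, and the other 5 were low. Mroh7 (106680417 to 106730925, minus strand), a HEAT-repeat protein gene, ran the other way: 6.33 to 9.73 CPM in wild type, 12.5, 6.28, 10.9 and 13.6 CPM in knockout PBS and 10.7 to 15.6 CPM in knockout LPS. In Mroh7 replicate 2 lay just below the wild-type range, and the other 7 knockout libraries lay above it without that order. Neither gene passed the test (edgeR adjusted p = 0.741 for Tceanc2 and 0.571 for Mroh7).

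**Figure D3:**
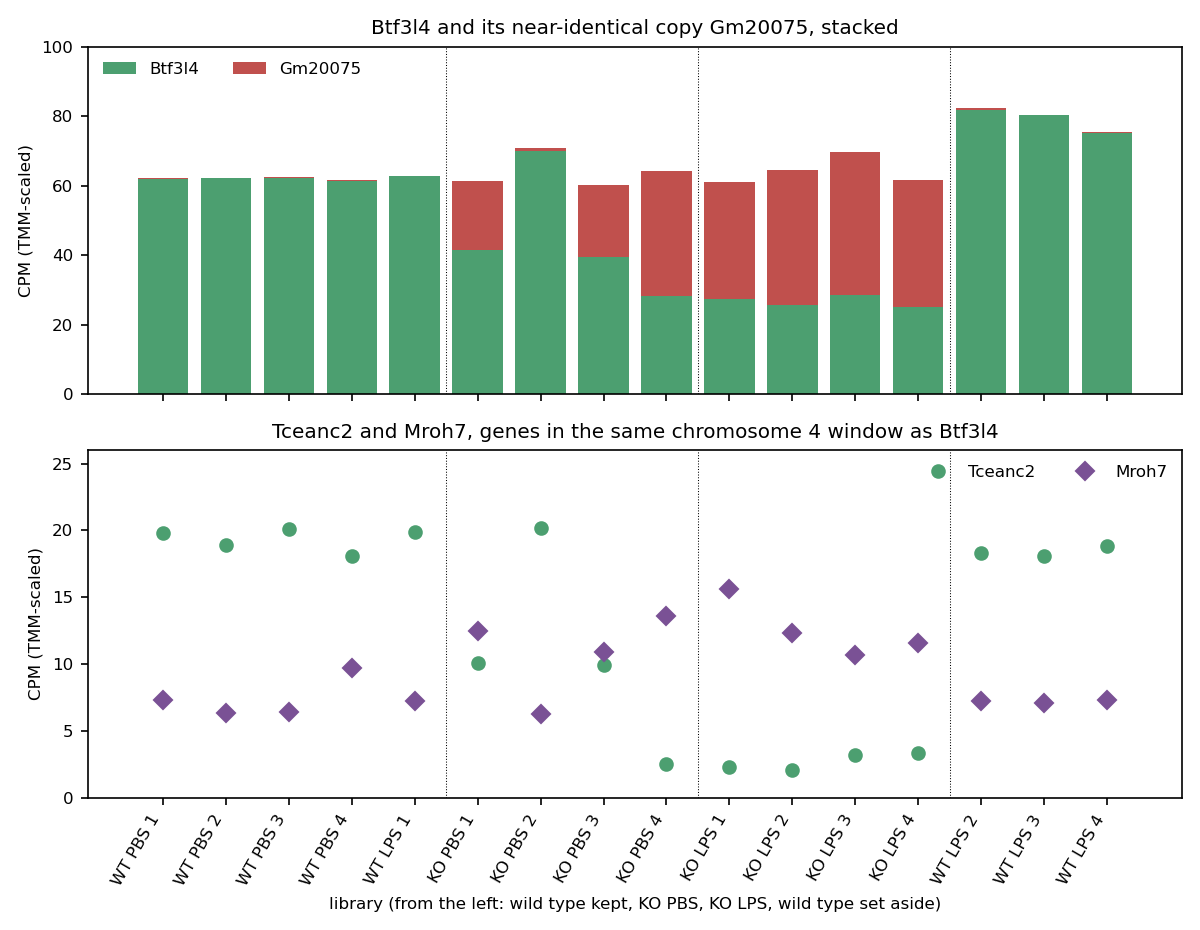
TMM-scaled CPM (y axes) in each library (x axis): in the upper panel Btf3l4 and Gm20075 as stacked bars, in the lower panel Tceanc2 (circles) and Mroh7 (diamonds), genes of the same chromosome 4 window. Bars of wild type and knockout reach similar heights (62.4 and 64.2 CPM on average), and knockout PBS replicate 2 lies close to the wild-type level in all 4 genes.

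Hist1h2bq (chromosome 13, 21806612 to 21810197, minus strand) encodes a core histone H2B of the large histone cluster. It shares 98.3% of its words with Hist1h2br, and the aligned transcripts are identical over 1254 bases, which the first 120 coding bases of both illustrate (GENCODE M21, GRCm38, chr13:21833771-21833890, plus strand, and chr13:21810052-21810171, minus strand; no base differs).
Hist1h2br: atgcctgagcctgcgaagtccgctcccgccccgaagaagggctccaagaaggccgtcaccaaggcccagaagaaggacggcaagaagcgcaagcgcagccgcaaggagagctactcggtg
Hist1h2bq: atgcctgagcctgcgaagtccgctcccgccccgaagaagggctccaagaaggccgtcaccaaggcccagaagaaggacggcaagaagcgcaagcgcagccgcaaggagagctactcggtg

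Hist1h2bq held 0.239 to 0.547 CPM in wild type and 1.28 to 4.94 CPM in knockout, with no overlap. The edgeR log2 fold change was 2.59 ± 0.33 (adjusted p = 0.00772). Unlike the pair on chromosome 4, the sum kept the difference. Both histone genes together held 0.789 ± 0.173 CPM in wild type (SD, n = 5) and 3.19 ± 1.24 CPM in knockout (n = 8), a rise of 2.01 ± 0.27 log2 (edgeR adjusted p = 0.0135). The 3 libraries set aside held 0.227 to 0.381 CPM of the sum, below the knockout range.

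Like Tspo, the genes Snx29, Cmss1 and Gm20075 came with the choice of the comparison as markers of the lines. The values of Snx29 and Cmss1 are therefore a description, and the call for Gm20075, counted among the 5 above, is not independent evidence. Snx29 encodes a sorting nexin and Cmss1 a homolog of a yeast small ribosomal subunit factor. Snx29 held 8.63 to 10.9 CPM in wild type, and 3.71, 3.93, 4.90 and 2.57 CPM in knockout PBS against 4.94, 6.89, 6.93 and 5.17 CPM in knockout LPS. Cmss1 held 5.60 to 6.94 CPM in wild type and 1.21 to 3.96 CPM in knockout. The library labelled knockout PBS replicate 1 lay with the other knockout libraries in both genes (3.71 and 1.75 CPM), in Ndn (219 CPM) and in Gm20075, whereas its Tspo lay with the wild type. The log2 fold changes were -1.03 ± 0.19 for Snx29 and -1.38 ± 0.26 for Cmss1 (edgeR adjusted p = 0.121 and 0.132).

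Over all genes tested, 40 had groups that did not overlap (0.251%): 20 higher and 20 lower in the knockout (0.125% each). The median change over all genes tested was -0.001, and 23 of the 40 had a change of less than 0.5 log2. Leaving out 1 library at a time gave 44 to 305 such genes, the most without wild-type PBS replicate 4. Leaving out a library can only keep or raise this count. Of the 40, 28 share at most 20% of their 31-base words with any other gene, while 8 share more than 50%. These 8 are Gm20075, Hist1h2bq, Dynlt1b, Tmem181b-ps, Gm21742, Gm21962, Gm2897 and Gm2026, named after their values were seen, and reads of such genes may be divided between copies. The 3 wild-type libraries set aside, which the comparison did not use, lay beyond the knockout range on the wild-type side for 21 of the 40 genes. For 19 at least 1 of them lay inside it or past it, and for 11 of those none of the 3 lay beyond. Those 3 libraries carry an LPS label and high Lcn2, so genotype and inflammation cannot be told apart in this check. They also share a title code with knockout PBS replicate 4.

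Several of the 40 genes, and others with small p, stood near each other; the places below were chosen after their values were seen and have no test. On chromosome 2 between 150 and 155 Mb, 7 of 71 tested genes had an unadjusted p below 0.01 (9.86%, against 1.27% of all genes tested). They were Tm9sf4, Ccm2l, Pofut1, Dusp15, Cbfa2t2, Commd7 and Cox4i2. Pofut1 encodes the O-fucosyltransferase that modifies Notch receptors, Dusp15 a dual-specificity phosphatase of oligodendrocytes, and Ccm2l an endothelial relative of a cavernous malformation protein. Dusp15 held 18.0 to 21.9 CPM in wild type and 12.9 to 17.1 CPM in knockout, with a log2 fold change of -0.41 ± 0.08 (edgeR adjusted p = 0.138). Ccm2l held 2.58 to 4.19 CPM in wild type and 1.72 to 2.47 CPM in knockout (-0.76 ± 0.13; edgeR adjusted p = 0.111). Pofut1 held 30.1 to 38.5 CPM in wild type, 22.7 to 25.2 CPM in 7 knockout libraries and 30.4 CPM in knockout PBS replicate 2. Cbfa2t2, a transcriptional corepressor, ran the other way: 54.5 to 56.8 CPM in wild type, 65.0 to 71.5 CPM in 7 knockout libraries and 54.7 CPM in knockout PBS replicate 2. In these 2 genes, as on chromosome 4, replicate 2 had the wild-type level.

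On chromosome 17 between 5 and 10 Mb, 4 of 34 tested genes had a p below 0.01 (11.8%). This stretch holds repeated copies of Tmem181, which encodes a membrane protein, and of Dynlt1, which encodes a dynein light chain. Tmem181c-ps and Tmem181a differ at 9 of 1338 aligned bases. In the 120 bases below, the 2 that differ are in capitals, and they show how little separates a read of one copy from a read of the other (GENCODE M21, GRCm38, chr17:6290557-6290676, plus strand, and chr17:6628778-6628897, minus strand).
Tmem181a: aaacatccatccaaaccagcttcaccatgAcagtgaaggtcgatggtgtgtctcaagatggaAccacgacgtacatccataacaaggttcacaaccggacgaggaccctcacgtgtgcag
Tmem181c-ps: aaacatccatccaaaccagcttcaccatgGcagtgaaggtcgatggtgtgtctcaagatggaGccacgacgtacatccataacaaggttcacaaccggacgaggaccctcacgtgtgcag

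The 3 Tmem181 copies summed to 213, 185, 174 and 190 CPM in the wild-type PBS libraries and to 305 CPM in LPS replicate 1. The 8 knockout libraries held 291 to 346 CPM. Wild-type LPS replicate 1 thus lay inside the knockout range, while the other 4 wild-type libraries and the 3 set aside (196 to 232 CPM) lay below it. The log2 fold change of the sum was 0.56 ± 0.11 (edgeR adjusted p = 0.181). Tmem181b-ps and Dynlt1b separated the groups when counted alone. The 4 Dynlt1 copies summed to 21.2 to 30 CPM in wild type and 23.9 to 36.3 CPM in knockout, with overlap. Their log2 fold change was 0.23 ± 0.11 (edgeR adjusted p = 0.809). Tmem181b-ps held 57.7 to 71.8 CPM in wild-type PBS, 112 CPM in wild-type LPS replicate 1 and 114 to 140 CPM in knockout (0.77 ± 0.13; edgeR adjusted p = 0.0815). Olfr648, on chromosome 7 and also chosen after its values were seen, showed the same split of the wild-type libraries, with 14.1 to 16.4 CPM in PBS, 27.7 CPM in LPS replicate 1 and 26.9 to 32.3 CPM in knockout. Without wild-type LPS replicate 1, Tmem181b-ps and Olfr648 were among the 12 genes called.

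The genes around Tspo were chosen by place, whereas the places above were picked for their small p-values. They are thus not a like comparison. Of 135 tested genes that start within 5 Mb of the start of Tspo, 0 passed the edgeR test and 0 separated the groups. Over all genes tested these shares were 0.0313% and 0.251%, at which 135 genes would be likely to hold none. Of the 135, 0 had an unadjusted edgeR p below 0.01, against 1.27% of all genes tested. At an unadjusted p of 0.05, 4 passed (2.96%, against 6.10%), and the smallest adjusted p was 0.807. DESeq2 also called none of them. Within 10 Mb, Fam83h, Nrbp2 and Arsa separated the groups, at distances of 7.6, 7.5 and 5.9 Mb, which is 3 of 284 genes (1.06%, against 0.251% of all genes tested); they too were named after their values were seen. Arsa encodes arylsulfatase A, the lysosomal enzyme that breaks down myelin sulfatide. It held 33.7 to 39.2 CPM in wild type and 29.6 to 33.5 CPM in knockout (-0.18 ± 0.05; edgeR adjusted p = 0.571).

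**Figure D4:**
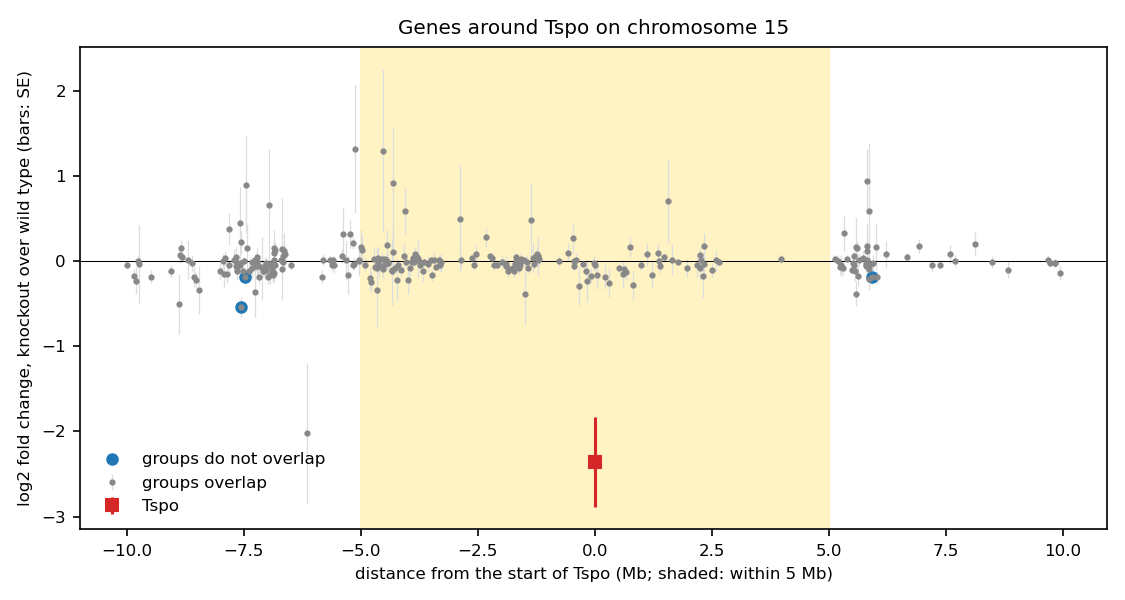
Log2 fold change of knockout over wild type with its SE (y axis) against distance from the start of Tspo in Mb (x axis) for the 284 genes tested within 10 Mb; the shaded band is 5 Mb on either side. Tspo lies at -2.36, and the 3 genes in blue, whose groups do not overlap, lie outside the band.

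The knockout PBS and knockout LPS libraries were also set separately against the same 5 wild-type libraries, so the 2 fits share their controls. The PBS fit called 0 genes (edgeR; 542 higher and 736 lower at an unadjusted p below 0.05) and the LPS fit called 8, or 0.0504% of its genes. For Ndn the log2 fold change was 0.69 ± 0.08 in the PBS fit and 0.67 ± 0.08 in the LPS fit. For Hist1h2bq it was 2.72 ± 0.33 and 2.45 ± 0.33, for Tm9sf4 -0.31 ± 0.05 and -0.30 ± 0.05, and for Ppt1 0.23 ± 0.04 and 0.33 ± 0.04. The PBS fit holds the libraries that stood apart in Tspo and in Gm20075. Tspo gave -1.85 ± 0.67 there and -3.14 ± 0.35 in the LPS fit, and Snx29 -1.40 ± 0.17 and -0.74 ± 0.13. The difference between the 2 fits was not tested.

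Of 38 gene lists, 36 had no called member, and the other 2 contain Gm20075. The list of markers given with the comparison is among these 2. Of all genes tested 0.0313% were called, a share at which the 734 distinct list members tested would hold few or none. A list without a call is thus near the background and is no result about its pathway. Lists are described by how many members had an unadjusted p below 0.05 in edgeR, beside 2.91% of all genes tested on the higher and 3.19% on the lower side. These shares were 1.88% and 1.63% without wild-type PBS replicate 1, 2% and 2.71% without wild-type LPS replicate 1, and 1.83% and 2.72% without both. With the treatment label as a covariate they were 5.07% and 5.74%. They were 3.42% and 4.65% with knockout PBS libraries only, and 2.75% and 2.87% with sex as a covariate. Among 28 tested partners of TSPO and enzymes of neurosteroid synthesis, 1 passed, Tspo itself. Dbi, which encodes the acyl-CoA-binding protein that is an endogenous TSPO ligand, gave a log2 fold change of 0.21 ± 0.11, and Cyp11a1, the enzyme that cleaves the cholesterol side chain, gave -0.20 ± 0.17. None of 35 nuclear-encoded subunits of the respiratory chain passed, with changes between -0.05 and 0.05. The 13 mitochondrially encoded subunits had 1 at that p, and 1 of 25 genes of cholesterol synthesis and uptake had it.

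Among the glial lists, the homeostatic microglia markers held the most genes with a small p. Of 18 homeostatic microglia markers, 7 had an unadjusted p below 0.05 and all 7 were higher in the knockout; the list median was 0.14. Siglech, a microglial sialic-acid-binding lectin, held 8.69 to 10.9 CPM in wild type and 11.2 to 14.8 CPM in knockout, without overlap (0.32 ± 0.08; edgeR adjusted p = 0.520). Csf1r, the receptor that keeps microglia alive, stood at 72.7 ± 6.38 CPM in wild type and 83.8 ± 6.77 CPM in knockout (0.20 ± 0.06; edgeR adjusted p = 0.731). None of 25 myelin, 14 oligodendrocyte precursor and 18 astrocyte genes passed at that level. The myelin count rested on the wild-type libraries. Without both PBS replicate 1 and LPS replicate 1, 20 of the 25 were lower (80%, against 2.72% of all genes tested there), with a list median of -0.25. Without LPS replicate 1 alone 3 were. Those 2 libraries had the lowest myelin scores of the kept libraries (-0.25 and -0.70), so leaving them out raised the wild-type mean. In tissue RNA, more cells of a type and more RNA per cell cannot be told apart. Without wild-type LPS replicate 1, 4 of the 18 microglial genes were higher and 1 was lower.

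Vessel and interferon genes had more small p-values on the lower side than on the higher side, with none called. Of 19 endothelial markers, 11 had an unadjusted p below 0.05, all lower, with a list median of -0.22. Tek, the endothelial angiopoietin receptor, stood at 14.8 ± 1.47 CPM in wild type and 11.7 ± 1.43 CPM in knockout (-0.34 ± 0.09; edgeR adjusted p = 0.586). Of 20 pericyte, smooth muscle and fibroblast genes 7 were lower, with a median of -0.30. These counts fell to 5 (26.3%) and 2 (10%) without wild-type PBS replicate 1, the kept library with the highest score of both lists (0.20 and 0.42). The lower share of all genes tested fell there too, from 3.19% to 1.63%. Of 9 red blood cell genes 4 were lower, and their list score ran from -2.13 to 1.34 in wild type and from -2.01 to 0.10 in knockout. Without wild-type PBS replicate 1, 0 of them were lower at that p. Without wild-type LPS replicate 1, 7 of 10 were, with a list median of -2.02. The red cell score did not follow the endothelial score in every library. Knockout LPS replicate 3 had the lowest endothelial score of the kept libraries (-0.38) and a red cell score of 0.07. The part of blood and vessel content in the lower vessel genes was not tested.

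Of 40 interferon-stimulated genes, 7 were lower at an unadjusted p below 0.05 and 0 were higher, with a list median of -0.19. Without wild-type PBS replicate 1, 2 were lower (5%, against 1.63% of all genes tested there). Ifit1, which blocks viral RNA translation, stood at 2.09 ± 0.454 CPM in wild type and 1.45 ± 0.368 CPM in knockout (-0.52 ± 0.20; edgeR adjusted p = 0.806). The mean over the list was tight within each genotype: -0.03 to 0.04 in the wild-type libraries, LPS replicate 1 included at 0.00, and -0.23 to -0.11 in the knockout libraries. The 3 libraries set aside stood at 2.08 to 2.21. Among the 38 lists, no other score separated the genotypes, and this separation was named after the scores were seen. On their own, 0 of the 40 interferon-stimulated genes separated the groups. Antigen presentation genes had 4 of 22 lower, with Cd74, the invariant chain of class II molecules, at 3.41 ± 1.13 CPM in wild type and 1.87 ± 0.453 CPM in knockout (-0.87 ± 0.22; edgeR adjusted p = 0.534).

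**Figure D5:**
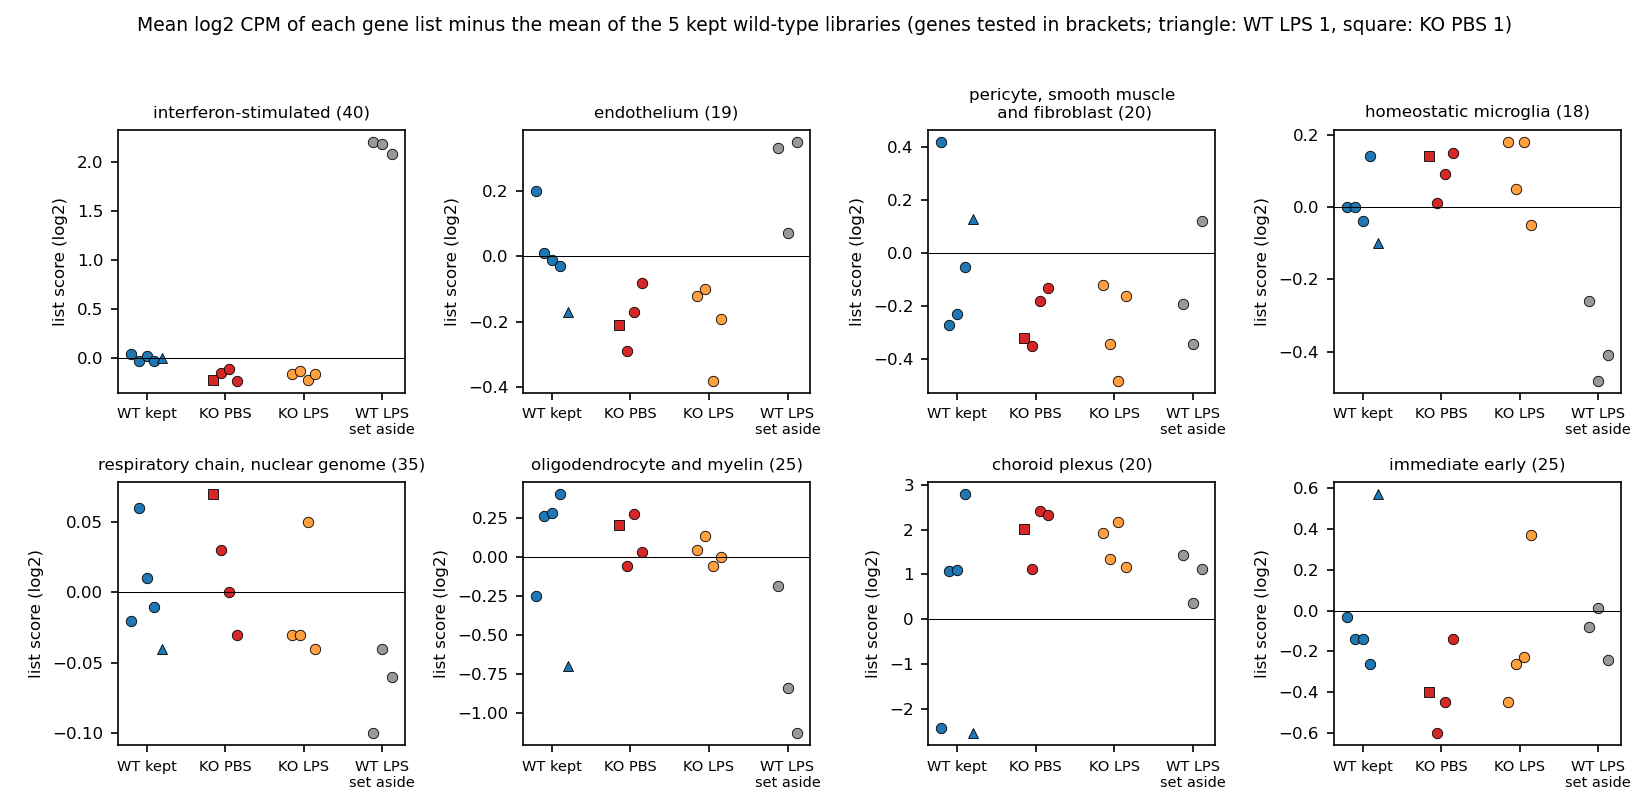
List score (y axes: mean log2 CPM of the list's tested genes minus the mean of the 5 kept wild-type libraries) in each library, by group (x axes), for 8 gene lists; the triangle is wild-type LPS replicate 1 and the square the library labelled knockout PBS replicate 1. The interferon scores of wild type (-0.03 to 0.04) and knockout (-0.23 to -0.11) do not overlap, although no gene of that list separates the groups alone. Wild-type PBS replicate 1 and LPS replicate 1 lie below all others in choroid plexus genes.

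Some list counts rested on single libraries. Of 25 immediate early genes, which neurons switch on within minutes of activity, 6 were lower and 1 was higher at an unadjusted p below 0.05. Fos stood at 36.5 ± 18.5 CPM in wild type and 20.9 ± 13.1 CPM in knockout (-0.81 ± 0.36; edgeR adjusted p = 0.808). Without wild-type LPS replicate 1, whose list score of 0.57 was the highest, 0 were lower and 0 higher. With the treatment label as a covariate 12 were lower (list median -0.44), with knockout PBS libraries only 10, and with sex as a covariate 7. All 20 choroid plexus genes had a change above 0, with a median of 0.63, but 0 had a p below 0.05, and the 2 wild-type libraries low in these genes are named above. Of 30 tested genes that mark neurons of neighbouring regions, 9 were higher and 1 lower, while the list median was -0.15 and 14 had a change above 0. Without either wild-type PBS replicate 1 or wild-type LPS replicate 1 the count of higher genes was 2, and without both, 1 of 32 was higher and 5 were lower. Ppp1r1b, a striatal signalling protein, stood at 86.3 ± 47.3 CPM in wild type and 193 ± 104 CPM in knockout, and Cbln3, a cerebellar granule cell gene, at 0.850 ± 0.371 and 38.1 ± 106 CPM, the latter SD being larger than its mean. The part of dissected neighbouring tissue in these values was not tested.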

How the data were processed

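Estimated counts per gene and library, rounded to whole numbers, were deposited by the authors. Salmon 1.9.0, MultiQC 1.13, DESeq and DESeq2 are named in the submitters' processing notes, with no role stated. Which genome build the authors used was not given in the sources used here. RNA was extracted with an RNeasy kit and libraries made with a NEBNext Ultra kit, per the labels' protocols. Symbols and positions were taken from GENCODE M21 (GRCm38), and 105 identifiers, holding 0.0537% of counts, were absent from it.

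Libraries were kept below 1 CPM of Lcn2. Of 19449 genes listed, filterByExpr of edgeR 4.0.16 (R 4.3.3) kept 15949, with 99.97% of counts. Libraries were scaled by TMM and tested with the quasi-likelihood F test, adjusted by Benjamini-Hochberg at 0.05; the biological coefficient of variation was 0.167. The SE is the log2 fold change divided by the root of F. Estimated counts carry mapping ambiguity between copies, and reads have no molecular identifiers. No 2 libraries agreed within sampling noise: the lowest ratio of their variance to Poisson was 4.07, against a limit of 1.1. The test was checked on simulated data of 15949 genes.

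Named genes are Tspo, Snx29, Cmss1, Gm20075 and Lcn2, called genes with the smallest p and a mean of at least 1 CPM, and 1 or 2 members of each list described without a call; others are marked as chosen after their values were seen. The members, lists and rules were chosen with earlier results of these data known. Alternatives were DESeq2 1.42.0, limma-voom (limma 3.58.1), RLE scaling, other filters, covariates (sva 3.50.0 for 1), other library sets and leaving out each library.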

Additional observations from a re-analysis of the deposited data

Results flagged for a closer look

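A library was looked at again where its gap to the nearest other of its genotype was large for the range of its group. Chance alone does this in about 1 in 20 groups, and 9 of 48 checks did so. The genes and lists checked were chosen with earlier results of these data known, and the checks share libraries. Hence 9 of 48 cannot be set against that rate. Tspo stood at 5.14 CPM in wild-type PBS replicate 4, against at most 2.61 CPM in the other wild-type libraries, and at 2.31 CPM in the library labelled knockout PBS replicate 1, against at most 0.484 CPM in the other knockout libraries. Gm20075 stood at 0.906 CPM in knockout PBS replicate 2, against at least 19.8 CPM in the rest, and Pofut1 at 30.4 CPM there, against at most 25.2 CPM. Hist1h2bq was at 0.239 CPM in wild-type PBS replicate 4, against at least 0.463 CPM, and Mid1 at 6.74 CPM in knockout LPS replicate 3, against at least 14.2 CPM. The score of genes that mark neighbouring regions was -1.04 in knockout PBS replicate 4, against at least 0.05 in the other knockout libraries. The immediate early score was 0.57 in wild-type LPS replicate 1, against at most -0.03, and 0.37 in knockout LPS replicate 4, against at most -0.14.

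Among the wild-type LPS libraries that the comparison left out, the lowest Lcn2 was 216 CPM, against a highest value of 0.631 CPM in the libraries compared.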

How the results depend on the processing

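Directions of the 8 genes followed across settings never turned. Apart from Tspo, these genes had groups that did not overlap in the 13 libraries. Settings that only left libraries out could therefore hardly turn them, and the genes were chosen with earlier results known. The 4 higher calls became 15 with DESeq2, 10 with limma-voom, 1 with the replicate block, 8 with no Lcn2 rule, 9 with Lcn2 below 0.5 CPM and 0 with knockout PBS libraries only. The 1 lower call became 16, 12, 0, 10, 3 and 0 in the same order, 2 with treatment as a covariate, 2 with all 16 libraries in the fit, 4 with sex as a covariate, 3 with knockout LPS libraries only and 3 without knockout PBS replicates 1, 2 and 3 (chosen after seeing the data). Leaving out 1 library gave 3 to 9 higher and 0 to 3 lower, the highest without wild-type LPS replicate 1. Called list members, 1 in the main result, were 10 with DESeq2, 9 with limma-voom, 2 with treatment, 0 with the block, 3 with all 16, 9 with no Lcn2 rule, 6 with the lower limit, 5 with sex, 3 with 1 surrogate variable, 4 with the choroid plexus score, 0 and 2 with knockout PBS or LPS libraries only, 2 without the 3 PBS libraries and 1 to 6 with 1 library left out.

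Tspo passed with DESeq2 (-2.77), limma-voom (-2.57), no Lcn2 rule (-3.32), knockout LPS only (-3.14) and without the 3 PBS libraries (-3.04); leaving out 1 library gave -3.21 to -2.07. The 40 genes without overlap were 21 with no Lcn2 rule, 90 with the lower limit and 44 to 305 with 1 library left out, the most without wild-type PBS replicate 4. The direction of these shifts was fixed: added libraries can only keep or lower the count, and fewer libraries can only keep or raise it. Ndn was called in 27 of 30 settings, Gm20075 in 26, Tm9sf4 and Hist1h2bq in 25 and Ppt1 in 14. These settings share most of their libraries and are not independent checks. The limit of 0.5 CPM and leaving out wild-type LPS replicate 1 keep the same libraries, so they count the same fit again. Numbers did not pair the libraries: deviations of same-numbered wild-type and knockout PBS libraries correlated at 0, 0.02, 0.05 and 0.18, and 1 of 4 matched its own number best; with the replicate block Tspo was at -2.50. Causes of these shifts were not tested. Changes under 1.5-fold were not simulated.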
